A study of Neurospora crassa with 12 samples.

Results

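The genes described here are 96 of the 9730 genes counted in mycelium of the filamentous fungus Neurospora crassa, chosen because their transcripts were high in a strain lacking dim-5 and not in a strain lacking a single heterochromatic region. Levels are in CPM, counts per 1000000 counts in the genes of a library. A gene was taken when its mean in the dim-5 deletion was at least 2 CPM and at least 4 times the wild-type mean, every dim-5 deletion library lay above every wild-type library, and the mean in the other mutant stayed under 2 times the wild-type mean. The first of these bounds was met by 7741 genes, the first 2 by 250 genes and the first 3 by 211 genes. The bound on the other mutant then left out 115 genes and kept 96. The members were thus chosen by their measured levels in all 12 libraries, so the size and direction of their differences between the strains are a description and carry no test.

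Polyadenylated RNA was sequenced from 3 strains with 4 libraries each, all from mycelium shaken for 16 h at 32 °C in Vogel's medium with 1.5% sucrose. The wild type N150 (WT) is labelled mat A. Strain NKL2 is labelled mat A with the heterochromatic region LGIIK9het25 replaced by the marker hph (ΔLGIIK9het25). Strain N3944 is labelled "mat x" with dim-5 replaced by the marker bar+ (Δdim-5), so this strain differs from WT in its mating type label as well as at dim-5, and the effects of dim-5 and of any other difference between the strains cannot be told apart. Each genotype is represented by a single named strain, and nothing in the labels says whether its 4 libraries came from separate cultures, so the p-values measure the spread between these libraries.

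In Neurospora, dim-5 encodes the enzyme that trimethylates lysine 9 of histone H3 (H3K9me3), a modification typical of silent chromatin. H3K9me3 is bound by heterochromatin protein 1, encoded by hpo, which brings the DNA methyltransferase encoded by dim-2. It lies mostly on AT-rich, repeat-derived DNA at centromeres, near telomeres and in dispersed islands that hold few genes.

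Reads counted in genes ran from 7164944 to 23925695 per library, and the Δdim-5 libraries, at 10920478 to 23925695, reached the highest totals. The dim-5 gene itself (NCU04402) held 6.15 to 8.77 CPM in WT and 6.26 to 8.46 CPM in the ΔLGIIK9het25 strain, against at most 0.0836 CPM in the Δdim-5 strain. One Δdim-5 library stood apart. In replicate 2 of Δdim-5 the conidial hydrophobin gene eas, which coats asexual spores, held 13764 CPM, against 221 to 982 CPM in the other 3 Δdim-5 libraries and 143 to 2295 CPM in WT. The counts of members called, the members' ratios to WT and the count of genes beside members that were called are also given without this library. The values of single stretches of genes are given with it only. The same holds for the shares of members beside each other, by distance from a member and near the ends of linkage groups.

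The 96 genes together held 694 to 733 CPM in each WT library, 834 to 1018 CPM in each ΔLGIIK9het25 library and 4090.2 to 6997 CPM in each Δdim-5 library. The median member rose 6.72-fold from the WT mean to the Δdim-5 mean, and the members ranged from 4.02-fold to 166-fold. For 24 members the ratio lay between 4 and 5, for 37 between 5 and 8, for 20 between 8 and 16, for 9 between 16 and 32, and for 6 above 32. Most of the 96 genes had little transcript in WT, with 30 under 1 CPM, 75 under 5 CPM and 84 under 10 CPM. By comparison 18.2% of all 9730 genes had a WT mean under 1 CPM, against 31.2% of the members. The bounds of the rule against WT favour genes that are low there, so these counts are a description too. In Δdim-5, 23 members had a mean between 2 and 5 CPM, 30 between 5 and 20 CPM, 34 between 20 and 100 CPM and 9 above 100 CPM.

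**Figure D1:**
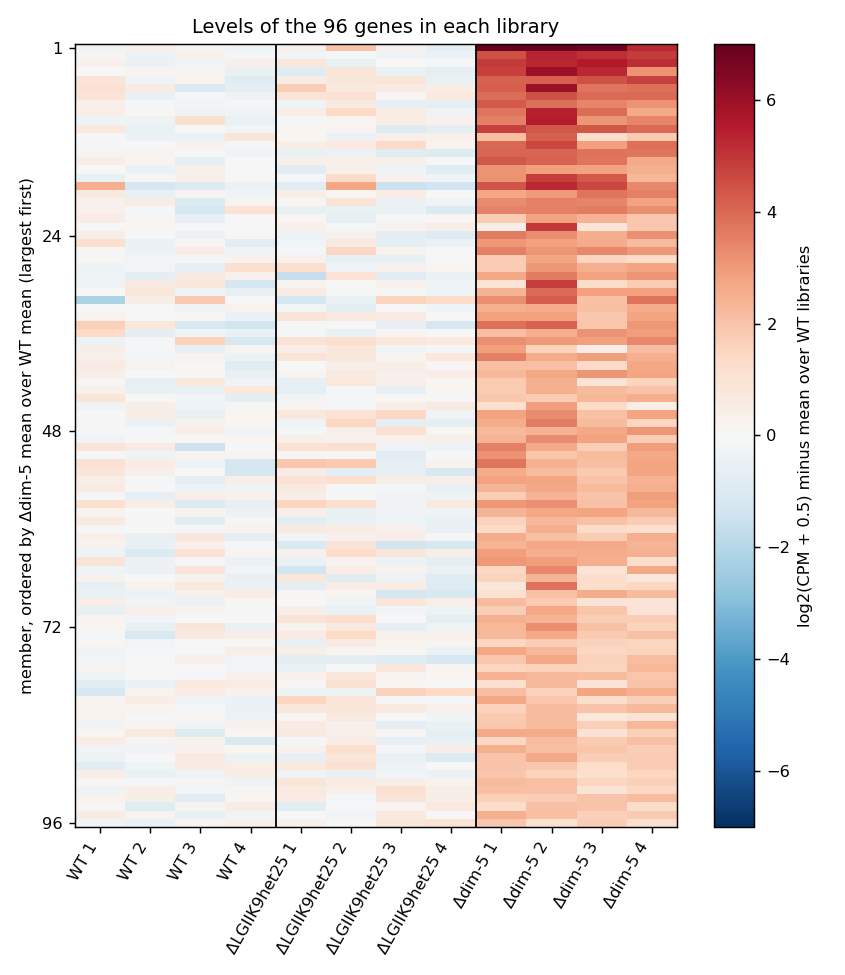
Colour gives the level of each of the 96 genes (rows) in each of the 12 libraries (columns), as log2(CPM + 0.5) minus the gene's mean over the WT libraries, with the gene of the largest Δdim-5 over WT ratio at the top. The 4 Δdim-5 columns are red throughout by the choice of genes, and replicate 2 is the highest of the 4 for 48 of the 96 genes.

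In edgeR's quasi-likelihood test over 8496 genes, 93 of the 95 members that passed the filter on low counts were called higher in Δdim-5 than in WT at an adjusted p under 0.05, against 9% of all genes tested. The rule used this contrast, so the count adds nothing to the choice of genes, and adjusted p-values printed for single members are a description. For the same reason the lack of overlap between Δdim-5 and WT libraries, which the rule required and 9.07% of tested genes showed, is not a result. Without replicate 2 of Δdim-5 the count was 88 of 95. The 2 members not called with all libraries were NCU05122 (adjusted p = 0.0527) and NCU07217 (adjusted p = 0.0682), and NCU02501 did not pass the filter. The median log2 fold change of the 95 tested members was 2.79, where that of all tested genes was 0.01. For 66 members the lowest Δdim-5 library was at least 2 times the highest WT library, and for 14 members it was under 1.5 times. NCU04431 had the narrowest gap of all 96, with a lowest Δdim-5 library 1.03 times the highest WT library.

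At the bounds of the rule, the values ran on without a break. NCU02488, at 4.02 times WT, and NCU09832, at 4.05 times, were just inside the 4-fold bound, and NCU07513, at 3.94 times, and NCU10500, at 3.90 times, were just outside. NCU16701, with a Δdim-5 mean of 2.06 CPM, and NCU10344, with 2.15 CPM, were just above the floor, and NCU01383, with 1.999 CPM, and NCU04920, with 1.95 CPM, were just below. On the ΔLGIIK9het25 side, NCU08431, at 1.92 times WT, and NCU16472, at 1.91 times, were kept, while NCU12051, at 2.004 times, and NCU09075, at 2.07 times, were not.

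Only 5 of the 96 genes (5.21%) carry a symbol of their own in the reference gene table, against 11.5% of all genes. They are ncw-5, lacc, parp, gh18-4 and rsk, and the other 91 are known here by their locus numbers alone.

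The gene ncw-5 (NCU00716) encodes a non-anchored cell wall protein. From replicate 1 to 4 it held 19.6, 26.7, 13.8 and 22.1 CPM in WT against 145, 206, 83.8 and 137 CPM in the Δdim-5 strain. In ΔLGIIK9het25 it held 33.7, 41.6, 54.9 and 17.0 CPM, so that the mutant's libraries overlapped those of WT and lay below every Δdim-5 library. Its mean rose 6.96-fold in Δdim-5 (edgeR log2 fold change 2.86 with an SE of 0.368 and adjusted p = 0.000164) and stood at 1.79 times WT in ΔLGIIK9het25 (adjusted p = 0.273). Its annotated span overlaps that of another counted gene, so its counts are less certain.

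The gene lacc (NCU04528) encodes a laccase, a copper oxidase that acts on phenolic compounds. It held 3.90, 4.05, 5.15 and 3.67 CPM in WT and 5.77, 6.93, 11.3 and 5.13 CPM in the ΔLGIIK9het25 strain, against 75.9, 118, 33.7 and 66.7 CPM in the Δdim-5 strain. The lowest Δdim-5 library was 6.55 times the highest WT library, and the Δdim-5 libraries differed from each other more than the WT libraries did. The mean rose 17.5-fold (edgeR log2 fold change 4.205 with an SE of 0.376 and adjusted p = 6.8e-06), the largest rise of the 5 named genes.

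The gene parp (NCU08852) encodes the poly(ADP-ribose) polymerase of Neurospora, an enzyme of a family that responds to DNA breaks. It held 7.43, 6.14, 7.49 and 4.61 CPM in WT and 8.62, 4.23, 5.17 and 5.05 CPM in the ΔLGIIK9het25 strain, against 34.7, 44.3, 46.5 and 32.3 CPM in the Δdim-5 strain. The 2 strains with dim-5 overlapped throughout and the Δdim-5 libraries stood close together, 6.15 times WT on average (edgeR log2 fold change 2.70 with an SE of 0.255 and adjusted p = 1.16e-05). Genes beside it that the rule did not take were also called higher. NCU08851, next to parp, had a log2 fold change of 1.00 (adjusted p = 0.0328), and mus-18 (NCU08850), which encodes a UV-damage endonuclease and is the gene after it, had 1.32 (adjusted p = 0.00892). The level of mus-18 was 63.3 ± 24.3 CPM in WT and 98.4 ± 34.6 CPM in the ΔLGIIK9het25 strain, against 151 ± 30.2 CPM in the Δdim-5 strain (SD, n = 4). NCU08851 held 14.4 ± 6.75, 19.1 ± 4.62 and 27.6 ± 8.13 CPM in the same order. Neither gene was called in ΔLGIIK9het25 against WT, or in Δdim-5 against ΔLGIIK9het25 (adjusted p = 0.127 for mus-18 and 0.179 for NCU08851 in edgeR). The genes on the other side of parp, NCU08853 and NCU16913, were too low to test. They stood at 0.111 and 0.171 CPM in WT, at 1.18 and 0.976 CPM in ΔLGIIK9het25 and at 0.0796 and 0.456 CPM without dim-5.

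The gene gh18-4 (NCU04883) belongs to glycoside hydrolase family 18, the family of fungal chitinases. It held 1.36, 0.977, 3.06 and 2.37 CPM in WT against 14.4, 26.7, 15.5 and 19.1 CPM in the Δdim-5 strain, and its ΔLGIIK9het25 libraries ran from 0.244 to 4.11 CPM, on both sides of the WT range. The rise was 9.74-fold (edgeR log2 fold change 3.34 with an SE of 0.578 and adjusted p = 0.00168).

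The gene rsk (NCU09151) is known for resistance to spore killers, selfish elements that act in ascospores. It held 2.63, 2.09, 2.74 and 1.89 CPM in WT against 12.6, 11.7, 7.46 and 8.32 CPM in the Δdim-5 strain, a 4.29-fold rise (edgeR log2 fold change 2.17 with an SE of 0.277 and adjusted p = 0.000154). In ΔLGIIK9het25 it held 4.64, 3.52, 3.30 and 2.79 CPM, with every library above every WT library but the difference not called (adjusted p = 0.321).

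**Figure D2:**
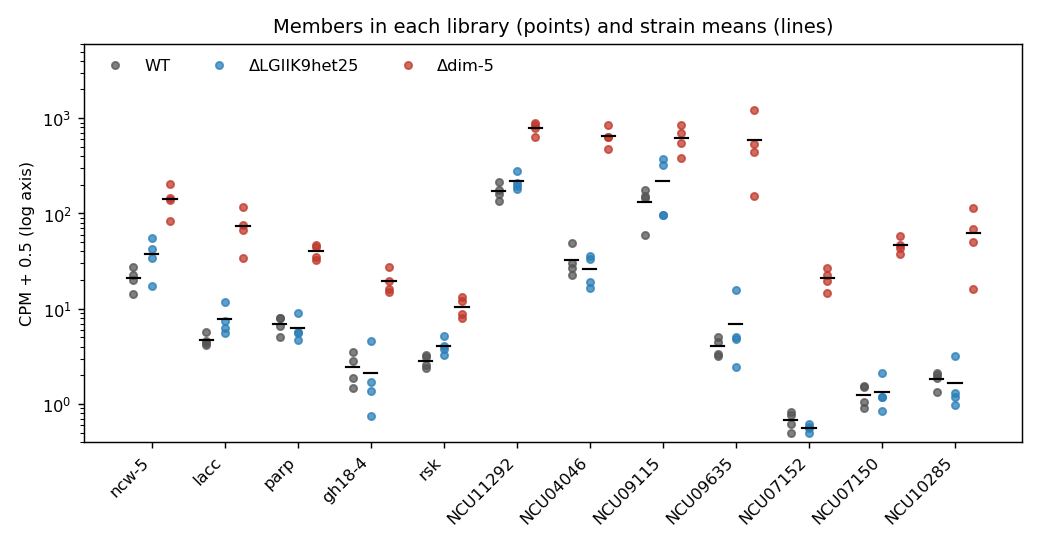
Points are single libraries and black lines are strain means for 12 of the 96 genes, in CPM + 0.5 on a log axis, with WT in grey, ΔLGIIK9het25 in blue and Δdim-5 in red. The grey and blue points of a gene lie near each other, and the red points are spread widest for NCU09635 and NCU10285.

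Among the members without a symbol, the largest shares of Δdim-5 reads went to NCU11292, NCU04046 and NCU09115, with gene length not taken into account. NCU11292 held 135, 174, 161 and 211 CPM in WT and 210.1, 280.5, 196 and 182 CPM in the ΔLGIIK9het25 strain, against 894, 854, 794 and 639.5 CPM in the Δdim-5 strain. NCU04046 held 48.1, 22.2, 29.6 and 26.5 CPM in WT against 853, 637, 628 and 476 CPM in the Δdim-5 strain, a 20.5-fold difference of means. Its ΔLGIIK9het25 mean was 25.7 ± 9.81 CPM against 31.6 ± 11.4 CPM in WT (SD, n = 4), so these strains did not separate. NCU09115 was less even, with 58.8, 145, 175 and 151 CPM in WT and 95.5, 96.9, 372 and 319.7 CPM in the ΔLGIIK9het25 strain, against 546, 380.3, 847 and 691 CPM in the Δdim-5 strain. The highest ΔLGIIK9het25 library of NCU09115 nearly reached the lowest Δdim-5 library. The spans of NCU04046 and NCU09115 overlap other counted genes.

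The next levels in Δdim-5, after NCU09635, were those of NCU09637, NCU09832, ncw-5, NCU05277, NCU16472 and NCU05035. NCU09637 held 13.3 to 24.1 CPM in WT libraries and 175, 554, 375 and 95.9 CPM in those of Δdim-5. NCU09832 held 33.9 to 67.8 CPM in WT libraries and 269.6, 205, 154 and 174 CPM in those of Δdim-5, and NCU05035 held 8.76 to 15.1 CPM and 141, 73.5, 93.1 and 68.2 CPM. NCU05277 and NCU16472 were uneven in WT too, from 9.50 to 42.8 CPM and from 7.57 to 39.8 CPM, and their lowest Δdim-5 libraries held 79.8 and 81.8 CPM.

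The largest ratio to WT was that of NCU09635, with 2.72, 4.61, 3.94 and 2.84 CPM in WT against 529, 1215, 440.4 and 152 CPM in the Δdim-5 strain. All Δdim-5 libraries were at least 33.0 times the highest WT library, yet they differed among themselves by 7.99 times. NCU07152 came next at 115-fold. It had 8 reads over the 4 WT libraries, with 0.272, 0, 0.322 and 0.118 CPM, and 14.1, 26.04, 22.2 and 19.3 CPM in Δdim-5. NCU07150 followed at 60.2-fold, from a WT mean of 0.761 ± 0.319 CPM to 45.8 ± 8.48 CPM without dim-5 (SD, n = 4), and its highest Δdim-5 library was 1.56 times the lowest. NCU10285, at 46.3-fold, held 49.4, 113, 68.8 and 15.7 CPM in Δdim-5 and at most 1.61 CPM in WT. The other 6 of the 10 largest ratios belonged to NCU05097 (37.4-fold), NCU09163 (33.2-fold), NCU08431 (27.2-fold), NCU09660 (24.8-fold), NCU09636 (24.6-fold) and NCU10641 (22.0-fold).

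Gene order was not used to choose the members. In the order of the NC12 gene table, 25 of the 96 members (26.04%) had another member as a direct neighbour, where 1.88% of all 9729 placed genes had a member beside them. Within 5 genes to either side the shares were 35.4% and 7.72%. The 25 neighbouring members formed 11 stretches, of which 1 held 4 members, 1 held 3 and 9 held 2.

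The stretch of 4 was NCU10285, NCU09635, NCU09636 and NCU09637, which are the outermost 4 counted genes at an end of linkage group IV. NCU09641, the eighth gene from that end, was also a member. The other tested genes here were not members, because their ΔLGIIK9het25 mean was too high or their rise too small, but they were called higher as well. NCU09639 rose from 3.09 ± 0.644 to 153 ± 157 CPM (SD, n = 4; edgeR log2 fold change 5.71 with an SE of 0.868 and adjusted p = 0.000651), NCU09640 from 1.05 ± 1.04 to 25.5 ± 10.1 CPM (adjusted p = 0.00195) and NCU10572 from 152 ± 41.3 to 566 ± 273 CPM (adjusted p = 0.00826). All 8 tested genes among the 9 outermost on this end were called higher in Δdim-5, 5 of them members by choice, and none of them in ΔLGIIK9het25 by the same test. The remaining gene, pks-5 (NCU09638), which encodes a polyketide synthase, had 0 counts in all 12 libraries. Its annotated span lies within that of NCU09637, so reads there fall in both genes, and its level cannot be read from its count.

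All 8 of these tested genes were highest in replicate 2 of Δdim-5 and lowest in replicate 4. All 8 were also highest in replicate 2 among the ΔLGIIK9het25 libraries, where NCU09635 held 15.1 CPM against 1.96 to 4.55 CPM in the other 3. In WT the highest library differed from gene to gene, being replicate 1 for NCU09636, replicate 2 for NCU09635 and replicate 3 for NCU10285. Of 7740 tested genes with a Δdim-5 mean of at least 2 CPM, 25.2% were highest in replicate 2 of Δdim-5. In replicate 2 of ΔLGIIK9het25 the share was 38.9%. The 8 genes thus shared their highest library within each mutant, but not within WT. Whether the libraries' other differences had a part in this was not tested.

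Near an end of linkage group V, NCU07147, NCU07148, NCU07150 and NCU07152 were members, genes 5, 6, 8 and 10 from the end, with a non-member on either side of NCU07150. The non-members NCU07149 and NCU07151 rose from 1.11 ± 0.606 to 12.2 ± 2.98 CPM and from 0.305 ± 0.131 to 1.72 ± 0.0949 CPM (SD, n = 4; adjusted p = 8.16e-05 and 0.00369 in edgeR). NCU17053, on the inner side, had 1.80 ± 0.678 CPM in WT and 8.09 ± 4.38 CPM in the ΔLGIIK9het25 strain, against 42.9 ± 7.20 CPM in the Δdim-5 strain, and was called higher in both mutants (adjusted p = 0.00401 and 2.41e-06). NCU07146, on the outer side, was not called in Δdim-5 (log2 fold change -0.56, adjusted p = 0.609). NCU07147 was thus the outermost gene of this neighbourhood that was called.

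**Figure D3:**
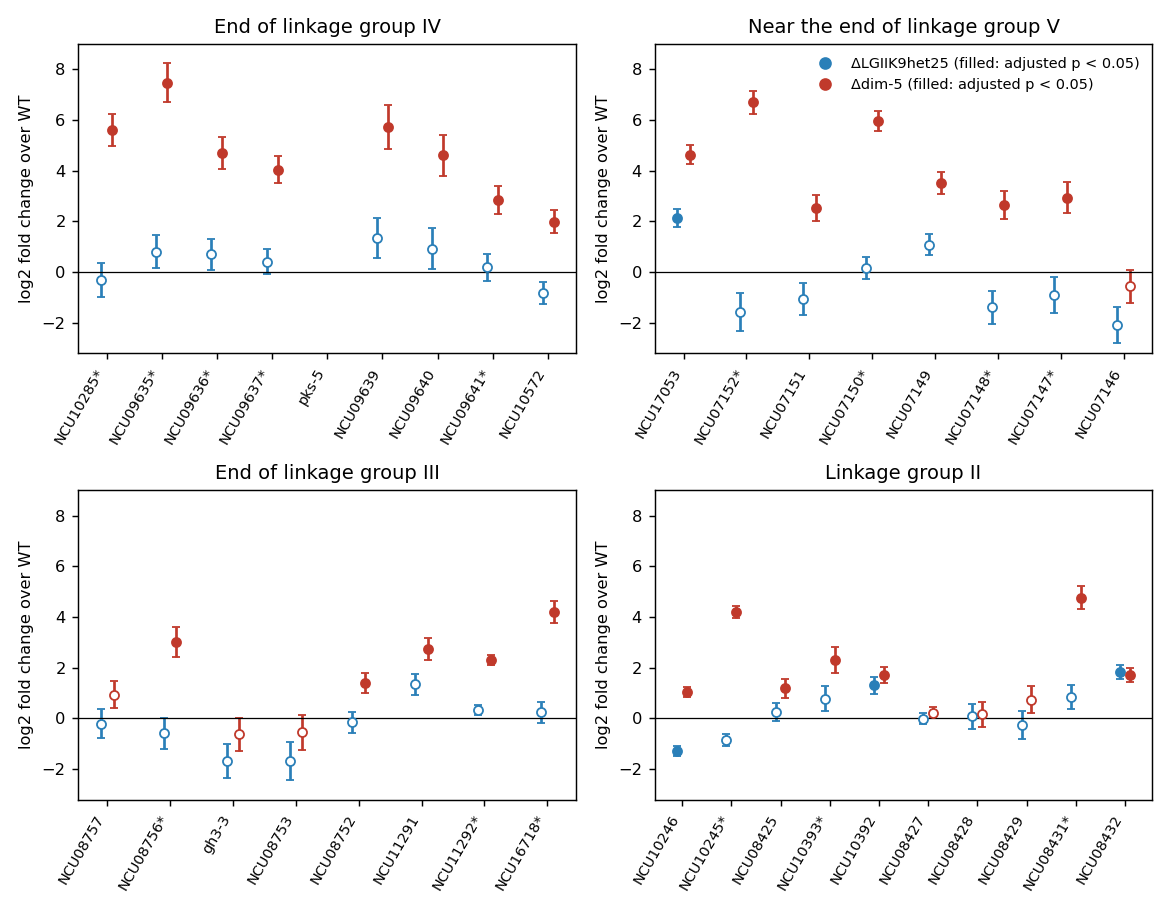
Each panel shows neighbouring genes in the order of the NC12 table, with log2 fold change over WT and its standard error for ΔLGIIK9het25 (blue) and Δdim-5 (red); filled points had an adjusted p under 0.05 in edgeR, an asterisk marks a member, and genes without points were not tested. At the end of linkage group IV the red points lie between 2.00 and 7.47 and no blue point is filled, while on linkage group V the red points fall to -0.56 at NCU07146.

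At an end of linkage group III, the outermost genes NCU16718 and NCU11292 were members, and NCU08756, the seventh from the end, was another. NCU16718 rose from 1.91 ± 0.765 to 33.0 ± 14.5 CPM (SD, n = 4; edgeR log2 fold change 4.202 with an SE of 0.429 and adjusted p = 2.47e-05). Between them NCU11291 was called higher (log2 fold change 2.75, adjusted p = 0.000847) and so was NCU08752 (1.41, adjusted p = 0.0288), while NCU08753 (-0.55, adjusted p = 0.641) and gh3-3 (NCU08755, -0.63, adjusted p = 0.544), a gene of glycoside hydrolase family 3, were not. On linkage group VI, 7 members lay within 22 successive genes from NCU05113 to NCU05089, with NCU05096, NCU05097 and NCU05098 side by side. Of the 24 genes in this stretch with its outer neighbours, 8 were too low to test and 9 were called higher in Δdim-5, of which 7 were the members themselves. Of the 9 tested genes in the stretch that were not members, 2 were called, NCU05102 and NCU05094. On linkage group II, NCU10245, NCU10393 and NCU08431 lay within 8 successive genes, of which NCU08427, NCU08428 and NCU08429 were not called. The non-members NCU08425 and NCU10392 between them and the outer neighbours NCU10246 and NCU08432 were called higher in Δdim-5. In ΔLGIIK9het25, NCU10392 (adjusted p = 0.0365 in edgeR) and NCU08432 (adjusted p = 0.00221) were called higher too, and NCU10246 lower (adjusted p = 0.00265).

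Over all members, 158 genes that were not members themselves stood directly beside one, and 124 of these passed the filter on low counts. Of the 124, 41 (33.1%) were called higher in Δdim-5 than in WT, against 9% of all tested genes, and 2 (1.61%) were called lower, against 7.53%. Their median log2 fold change was 0.61, where that of all tested genes was 0.01. Of the 108 whose annotated span overlaps no other counted gene, 37 (34.3%) were called higher. Against ΔLGIIK9het25, which shares the Δdim-5 libraries with the first comparison, 31 of the 124 (25%) were called higher. The 2 genes called lower were NCU08232 (log2 fold change -1.75, adjusted p = 0.0101 in edgeR) and NCU08541 (-1.60, adjusted p = 0.00592).

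The 41 neighbours called higher lay outside the rule in different ways. In 18 of them the ΔLGIIK9het25 mean was at least 2 times WT, past the bound of the rule, and 6 were called higher in ΔLGIIK9het25 too. In 23 of the 41 the Δdim-5 mean was under 4 times WT. The largest fold change among them was that of NCU09956, beside the member NCU09955, which rose from a WT mean of 0.431 ± 0.335 CPM to 26.2 ± 4.35 CPM without dim-5 with 1.23 ± 1.78 CPM in ΔLGIIK9het25 (SD, n = 4; edgeR log2 fold change 5.97 with an SE of 0.818 and adjusted p = 0.000286). NCU04697, beside NCU04695, stood at 10.0 ± 9.51 CPM in WT and 112 ± 39.8 CPM in the ΔLGIIK9het25 strain, against 119.55 ± 88.4 CPM in the Δdim-5 strain, called higher in both mutants. NCU09152, beside rsk, was a highly transcribed gene that rose from 815 ± 184 to 1806 ± 363 CPM (adjusted p = 0.00169). In ΔLGIIK9het25 against WT, 7 of the 124 neighbours (5.65%) were called higher, against 3.08% of tested genes, and 4 (3.23%) lower, against 1.24%.

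The share of non-members called higher was lower at each step over the first 4 genes away from a member. It was 33.1% of 124 at 1 gene from the nearest member, 17.4% of 115 at 2 genes, 9.32% of 118 at 3 genes and 7.56% of 119 at 4 genes. From 5 to 10 genes it lay between 7.61% and 15.2%, and beyond 10 genes it was 7.18% of 7383. The share called lower was 1.61% at 1 gene, lay between 4.24% and 5.04% at 2 to 4 genes, varied between 4.35% and 14.2% at 5 to 10 genes with the highest value at 5, and was 7.79% beyond 10 genes.

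**Figure D4:**
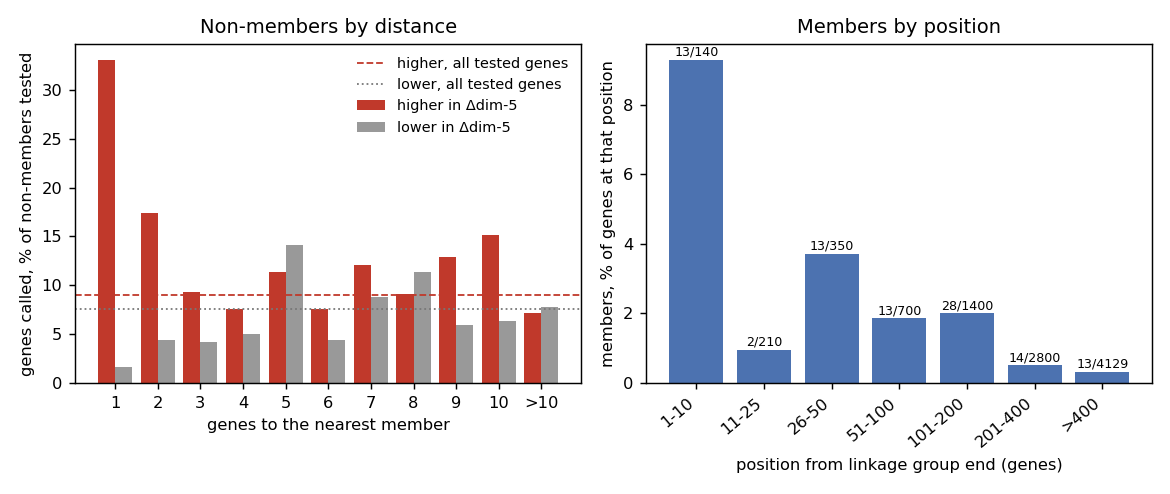
The left panel gives the percentage of tested non-members called higher (red) or lower (grey) in Δdim-5 than in WT, by the number of genes to the nearest member, with dashed and dotted lines at 9% and 7.53% for all tested genes. The right panel gives members as a percentage of all placed genes, by position counted in genes from the nearer end of a linkage group, with members over genes above each bar; it is highest at 9.29% in the outermost 10 genes.

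Members were also frequent toward the ends of linkage groups. Among the outermost 10 genes of each end 13 of 140 (9.29%) were members, among the next 15 it was 2 of 210 (0.952%), and from the 26th to the 50th gene it was 13 of 350 (3.71%). In the next genes up to the 100th it was 13 of 700 (1.86%), and from there to the 200th it was 28 of 1400 (2%). The share thus did not fall steadily from the ends inward. Beyond the outermost 200 genes and up to 400, 14 of 2800 (0.5%) were members and farther in 13 of 4129 (0.315%). The 50 outermost genes of all ends held 28 members (29.2%), where they held 7.19% of all placed genes. The median member was 109 genes from an end and the median gene 348. Of the 13 members in the outermost 10 genes, 12 belonged to the stretches on linkage groups III, IV and V described above, so they are not separate cases, and the other was NCU09627 on linkage group II. Genes in the outermost 50 that were not members were called higher in Δdim-5 in 13.7% of 556 cases, and those farther in in 7.60% of 7844. By linkage group the members made up 1.72% of genes on VI, 1.36% on III, 1.35% on IV and 1.203% on V, and 0.778% on II, 0.511% on I and 0.287% on VII.

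In ΔLGIIK9het25 the median member moved little, which the bound of the rule favours. The members' sum was nevertheless 834 to 1018 CPM, above the 694 to 733 CPM of WT in every library. Without the 3 members highest in Δdim-5 the sums overlapped, at 342 to 606 CPM against 306 to 452 CPM. The means of single members were 0.367 to 1.92 times WT with a median of 1.11, where the median of tested genes was 0.999. The mean was above WT for 59 members and below for 37, and 23 members reached 1.5 times WT. None of the 95 tested members was called in ΔLGIIK9het25 against WT by edgeR, higher or lower, where 3.08% and 1.24% of tested genes were. At an unadjusted p under 0.05 there were 5 higher and 2 lower of the 95, against 8.47% and 7.29% of tested genes. DESeq2 called 0 members higher and 1 lower, NCU07073, among 428 and 217 genes it called in all. Every ΔLGIIK9het25 library lay above every WT library for NCU06400, NCU06589 and rsk, which is 3 of 96 against 6.19% of tested genes, and below for NCU07073 and NCU10245, which is 2 of 96 against 4.65%. NCU10245 had 2.92 ± 0.601 CPM in WT and 1.65 CPM in the ΔLGIIK9het25 strain, against 50.9 ± 6.62 CPM in the Δdim-5 strain.

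Set directly against ΔLGIIK9het25, 93 of the 95 tested members were called higher in Δdim-5, against 8.83% of tested genes, and the 2 others were NCU02488 (adjusted p = 0.0529) and NCU10344 (adjusted p = 0.0504). The libraries of these strains did not overlap for 89 of the 96 members, against 8.26% of tested genes. The bounds of the rule on both mutants nearly fix this outcome. The count of members called was 80 of 95 without replicate 2 of Δdim-5 and 81 of 96 without replicate 4 of ΔLGIIK9het25. For the 7 others, NCU02501, NCU07102, NCU07217, NCU07595, NCU08058, NCU10393 and NCU10772, the ranges overlapped, so that a rise in Δdim-5 alone is not clear for them library by library.

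The members differed in how even they were between Δdim-5 libraries. The highest Δdim-5 library was 2.21 times the lowest for the median member, where it was 1.65 times for the median of 7740 tested genes with a Δdim-5 mean of at least 2 CPM. It was under 2 times for 41 members and at least 4 times for 16. Replicate 2 was the highest Δdim-5 library for 48 of the 96 members, against 25.2% of those 7740 genes, and replicate 3 was the lowest for 38. The median member held 1.27 times as much in replicate 2 as the mean of the other 3, where the median of those genes held 0.947 times. The rule used the Δdim-5 mean, which a single high library can lift, so these spreads and shares are a description.

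Some members rested on replicate 2 of Δdim-5. NCU08058 held 3.39, 89.0, 4.69 and 10.2 CPM in Δdim-5 and 2.09 to 2.65 CPM in WT. NCU04167 held 7.60, 119.7, 9.73 and 13.9 CPM in Δdim-5 and 1.30 to 6.60 CPM in WT. Without replicate 2 the Δdim-5 mean was still at least 4 times WT for 81 of the 96 members, with a median ratio of 6.08, and fell under it for 15, among them NCU08058, NCU04167, NCU04431 and NCU02071. Without it 33 rather than 41 of the neighbouring genes were called higher.

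**Figure D5:**
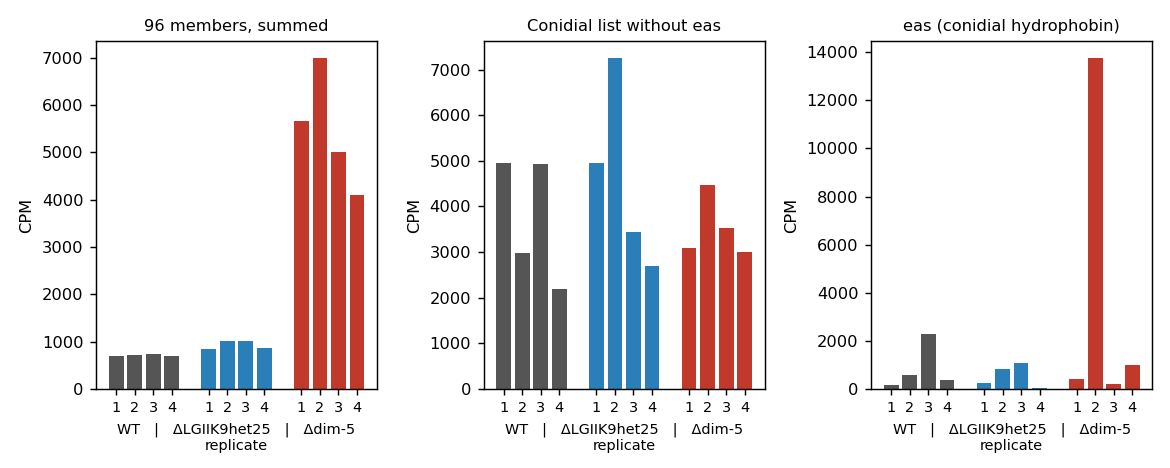
Bars give single libraries, replicates 1 to 4 of WT (grey), ΔLGIIK9het25 (blue) and Δdim-5 (red), in CPM from 0, for the sum of the 96 members, the sum of the 12 other conidial genes and eas alone. The members' sum is 4090.2 CPM or more in every Δdim-5 library and at most 1018 CPM elsewhere, while eas is at 13764 CPM in replicate 2 of Δdim-5 and at most 2295 CPM elsewhere.

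Markers of asexual spores were read beside this. The 13 conidial genes (con-6, con-8, con-10, con-13, eas, fl, acon-2, acon-3, ccg-1, al-1, al-2, al-3 and cmt) summed to 2566 to 7217 CPM in WT and 2732 to 8089 CPM in the ΔLGIIK9het25 strain, against 3513 to 18241 CPM in the Δdim-5 strain. The highest value was replicate 2 of Δdim-5, of which eas made up 13764 CPM. Without eas the sums were 2184 to 4959 CPM in WT against 2999 to 4477 CPM in the Δdim-5 strain. None of the 13 was at 0 in any strain, and none was a member. In Δdim-5 1 of the 13 was called higher and 0 lower, beside 9% and 7.53% of all tested genes. The 1 called was cmt, the copper metallothionein gene, at a log2 fold change of 0.57. The part of these cells or transcripts in the members' levels was not tested, and in RNA from whole mycelium more cells of a kind and more RNA per cell cannot be told apart. Of 13 genes of sexual tissue, 0 were called in either direction in Δdim-5, beside the same 9% and 7.53%. Their sums ran from 633 to 752 CPM in WT against 502 to 681 CPM in the Δdim-5 strain. In ΔLGIIK9het25 these sums ran from 615 to 1050.1 CPM. There 2 of the 13 were called higher than in WT (3.08% of all tested genes), the pheromone gene mfa-1 and the pheromone receptor gene pre-1. In Δdim-5 3 were called lower than in ΔLGIIK9het25. At an adjusted p under 0.05, 0 of 10 vegetative genes were called higher in Δdim-5 (9% of all tested genes) and 1 lower (7.53%), cot-2, at -0.52. Their summed level was 30715 to 32911 CPM in WT and 27575 to 34594 CPM in the ΔLGIIK9het25 strain. In the Δdim-5 strain it was 22679 to 29305 CPM, below every WT library. Actin (act), one of the 10, had 2275 CPM in WT against 2114 CPM in the Δdim-5 strain. The means of pma-1 (5224 against 3317 CPM) and hex-1 (5809 against 3920 CPM) were lower by more, though neither was called. Of the 10, chs-1 alone had a higher mean in Δdim-5, at 306 CPM against 293 CPM in WT.

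The rule was applied again without the 3 libraries of a replicate number, and the left-out libraries, which had no part in that choice, were then read. Without replicate 1 the rule took 99 genes, and 61 of them (61.6%) were at least 4 times higher in the left-out Δdim-5 library than in the left-out WT library. The corresponding counts were 79 of 89 (88.8%) for replicate 2, 71 of 132 (53.8%) for replicate 3 and 70 of 103 (68.0%) for replicate 4. Of all tested genes, 5.59%, 7.82%, 4.04% and 5.79% passed the same ratio in these library pairs. The left-out Δdim-5 library was above the left-out WT library for 94 of 99, 89 of 89, 114 of 132 and all but 2 of 103 genes, and for 40.6%, 51.2%, 36.6% and 57.6% of all tested genes. The left-out ΔLGIIK9het25 library was under 2 times WT for 89 of 99, 50 of 89, 100 of 132 and 81 of 103, and for 91.3%, 83.3%, 92.3% and 91.8% of all tested genes. Of the genes chosen, 81, 71, 84 and 86 were among the 96. The rule and its bounds were kept from the choice made with all 12 libraries, and each reading rests on 1 library per strain. These counts are thus a description and no independent test.

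Genes of the heterochromatin pathway were read for comparison, and none was a member. Of the 16 found by name, 0 were called higher in Δdim-5 (9% of all tested genes) and 2 lower (7.53% of all), which were dim-5 itself and the linker histone gene hH1 (log2 fold change -0.64, adjusted p = 0.00386 in edgeR). The median of the 16 was -0.11. The reader gene hpo had 75.4 CPM in WT against 65.4 CPM in the Δdim-5 strain and dim-2 had 43.3 and 37.7 CPM, neither called. Of 23 DNA damage genes, 5 were called higher and 0 lower, with a median of 0.32, beside 9% and 7.53% of all tested genes and their median of 0.01. The 5 were mus-18, mus-23 (0.83, adjusted p = 0.0240), mus-25 (0.65, adjusted p = 0.0381), mus-26 (0.88, adjusted p = 0.0444) and mei-3, the strand-exchange recombinase gene of homologous repair (0.62, adjusted p = 0.0309). All 5 stayed under the 4-fold bound, and mus-18 lay 2 genes from parp. Of 9 stress genes, 1 was called higher and 1 lower, beside the same 9% and 7.53% of all tested genes. The catalase-peroxidase gene cat-2 was called higher (1.71, adjusted p = 0.0122 in edgeR) and the catalase gene cat-3 lower (-2.02, adjusted p = 0.000216). The median of the 9 was 0.05.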

How the data were processed

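Polyadenylated RNA of 12 libraries was measured, 4 from each of 3 strains, grouped by the strain labels. Each library came with its own table of unnormalized read counts by gene, as the authors deposited it. HISAT2, HTSeq and DESeq2 are named without versions or roles in the submitters' processing notes, and the sources used here do not give the genome build or the gene models. Each table ends with 5 entries that name no gene, and these stayed out of library sizes and tests. Reads without a feature were 8.85% to 36.8% of all entries in WT libraries (highest in replicate 2) and 5.17% to 31.8% in those of ΔLGIIK9het25. In Δdim-5 they were 3.62% to 7.29%, so every Δdim-5 library lay below every WT library. Unaligned reads were 6.25% to 19.6% over all libraries, highest in replicate 2 of Δdim-5. The part of these differences in the gene levels was not tested. Ambiguous reads were 1.78% to 3.00%, and reads in overlapping or antisense genes cannot be told apart where strand was not used.

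CPM were computed from the counts over the 9730 genes. Tests used 1 quasi-likelihood fit in edgeR 4.0.16 (R 4.3.3) of all 12 libraries by strain, with TMM scaling, filterByExpr and Benjamini-Hochberg adjustment over 8496 genes at 0.05. Fold changes are log2 with standard errors, and the fit had 9 residual degrees of freedom. Alternatives were DESeq2 1.42.0, other scalings and filters, thinning to 7164944 counts, a replicate term, leaving out each library and other bounds of the rule. Gene order and symbols came from the RefSeq gene table of assembly NC12, which held 9729 of the 9730 identifiers. It was used for names and neighbours only.

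The members, the gene lists and the rule for naming genes were chosen with earlier results of these data known. Named members were those with a symbol, the 10 highest levels in Δdim-5, the 10 largest ratios, the highest of each stretch of at least 3 and those at the bounds. Neighbourhoods, genes beside members, members with a wide spread and single list genes were chosen after their values were seen. Sequence features and product classes of the members were not analysed here.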

Additional observations from a re-analysis of the deposited data

Results flagged for a closer look

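In 87 sets of 4 libraries (a member or a summary in a strain), the highest or lowest library was compared with the others by Dixon's test at the 95% level, which chance alone passes in about 1 in 20 sets, or 4.35 of 87. It was passed by 3. NCU08431 held 23.5 CPM in replicate 2 of Δdim-5 and 15.8 to 16.5 CPM in the other 3 libraries. NCU10641 held 3.54 CPM in replicate 3 of WT and 0.828 to 0.997 CPM in the other 3. The median level of the 96 genes was 2.36 CPM in replicate 1 of WT and 1.57 to 1.67 CPM in the other 3.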

How the results depend on the processing

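The rule found 96 genes, and 73 to 143 under other floors, scalings, thinning, strain medians, a 3-fold bound or a bound of 1.5 on ΔLGIIK9het25. It found 35 with an 8-fold bound and 211 with no bound on ΔLGIIK9het25, by construction. Strain medians shared 77 of their 93 genes with the 96. Leaving out 1 library gave 80 (without Δdim-5 replicate 2) to 113 genes. Genes called in Δdim-5 against WT numbered 1405, with 1152 to 1823 under other tools, scalings and filters and 1061 to 1501 without 1 library. For ΔLGIIK9het25 against WT the count was 367, but 645 with DESeq2 and 188 with a mean of at least 5 CPM, where fewer genes are tested. Without 1 library it was 216 (WT replicate 4) to 402, with 221 without NKL2 replicate 3 and 244 without NKL2 replicate 4. For Δdim-5 against ΔLGIIK9het25 the count was 1423, and 939 (without NKL2 replicate 4) to 1452 without 1 library. Apart from the stated constructions, the cause was not tested. Library totals alone moved the split of higher and lower calls to 652 and 756 from 765 and 640 against WT, and to 586 and 788 from 750 and 673 against ΔLGIIK9het25. The neighbouring genes called higher numbered 41, and 30 to 53 under alternatives chosen after seeing the data.

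Of the named members' calls under the alternatives, 479 were kept and 9 were lost, all of NCU16701 (adjusted p 0.0518 to 0.0867 in edgeR) and NCU10344 (0.0515 to 0.0590), and none changed direction. The rule chose these members from the same libraries, so the kept calls are largely set by that choice. The rule's bound on ΔLGIIK9het25 likewise favours few calls of members in that strain. In ΔLGIIK9het25 against WT, where 0 members were called, at most 1 in each direction was called under any alternative (1 higher and 0 lower without WT replicate 1, 1 and 1 without WT replicate 3, and 0 and 1 with DESeq2, the replicate block, without NKL2 replicate 2 or without Δdim-5 replicate 2). In gene levels, same-numbered libraries of different strains had correlations of -0.20 to 0.46 (median 0.06), over 0.1 in 2 of 12. Those of different number had -0.39 to 0.40 (median -0.003), over 0.1 in 6 of 36. Reads without a feature ran in the same replicate order in WT and ΔLGIIK9het25, from replicate 2 (36.8% and 31.8%) to replicate 4 (8.85% and 5.17%). In Δdim-5 they ran from replicate 1 (7.29%) to replicate 4 (3.62%). Whether a replicate number marks a shared batch cannot be told from the labels. With the replicate block, 1504, 371 and 1467 genes were called in the 3 comparisons and 39 neighbouring genes. Low counts limit the members under 1 CPM in WT, whose ratios rest on few reads.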

Other observations

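On linkage group V, away from the ends, the members NCU04167 and NCU04169 flanked NCU04168, which rose from a WT mean of 5.88 ± 2.38 CPM to 39.2 ± 43.0 CPM without dim-5 (SD, n = 4; edgeR log2 fold change 2.82 with an SE of 0.648 and adjusted p = 0.00954). Replicate 2 was the highest Δdim-5 library for each of the 3 genes, at 119.7 CPM for NCU04167, 102 CPM for NCU04168 and 44.1 CPM for NCU04169. The outer neighbours NCU04166 (log2 fold change 0.11, adjusted p = 0.724) and NCU04170 (0.53, adjusted p = 0.189) were not called.

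On linkage group IV the members NCU09660 and NCU16720 were the 30th and 31st genes from an end. NCU09660 held 19.4, 14.0, 10.5 and 8.53 CPM in Δdim-5 and 0.402 to 0.816 CPM in WT, and NCU16720 held 26.6, 20.2, 12.1 and 19.3 CPM in Δdim-5 and 1.13 to 2.36 CPM in WT. Neither was highest in replicate 2.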
